A study of Rattus norvegicus with 4 samples.

Results

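The regions described here are the H1T2 peaks of rat testis that lie on L1 LINE repeats other than the L1_Rn subfamily and outside introns. They were found by joining the authors' repeat annotation to the deposited peak list by chromosome, start and end, and by keeping the peaks of repeat class LINE whose repeat name is not L1_Rn and whose annotation is not an intron. The rule gave 237 of the 11570 peaks of the list. The annotation used covers the 1930 peaks with a -log10 p-value of at least 17.78, so that weaker L1 peaks are not among the 237, and every comparison of sets below is within these 1930; the annotation of the rest was not used here. In the study, nuclei from testes of rats aged 35 to 50 days, labelled as round and elongating spermatids, were decondensed, and chromatin was precipitated with an antibody raised against a C-terminal peptide of H1T2. The 2 H1T2 IP samples and 2 input samples (sonicated chromatin without precipitation) carry no genotype or treatment, and no strain is given in the labels. Peaks were called on the merged IP against the merged input, so that each peak has 1 set of values and no spread between replicates. The data hold no expression values, and the labelled cell type could not be checked against marker genes.

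H1T2 (H1fnt) is a linker histone of the haploid male germ cell that is needed for normal nuclear condensation and elongation during spermiogenesis. L1 elements are retrotransposons that copy themselves through an RNA intermediate, and most genomic copies are truncated at the 5′ end and can no longer move. They are sorted into subfamilies by sequence; RNHAL1 is the rat family of HAL1 (half-L1) elements, which derive from L1 and carry its first open reading frame without the reverse transcriptase, whereas L1M2 belongs to the old L1 families shared among mammals.

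The study amplified 2 LINE regions by ChIP-PCR, and both are among the 237 peaks. The primers are shown because they are the sequences at hand that belong to members; the source does not state which pair amplifies which region, and the genome sequence of the peaks themselves was not used here.

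LINE pair 1 forward: acagggtttggaataaaatgactctt

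LINE pair 1 reverse: aaagcacacattgcaccttacataaaa

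LINE pair 2 forward: ttctcagtctctgttttaatctttgcc

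LINE pair 2 reverse: cctagatgcctagaacaaatgaaactc

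G and C made up 34.6% and 33.3% of the bases of the primers in the first pair and 37.0% and 40.7% in the second.

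The 237 peaks were divided almost evenly between RNHAL1 and L1_Rat1. RNHAL1 held 111 peaks (46.8%, 95% Wilson interval 40.6 to 53.2%) and L1_Rat1 held 110 (46.4%, 40.2 to 52.8%). The remaining 16 peaks were on L1_Rat2 (7), L1_Rn2 (3), L1M2 (2), L1VL4a (2), Lx5 (1) and L1_Mur1 (1). The annotation was Intergenic for 231 of the 237, and the other 6, on contigs, had no category. The pileup, which is the number of IP tags at the summit, had a median of 38 tags with quartiles of 30 and 48. The local background, computed as the pileup divided by the fold enrichment, had a median of 4.47 tags and could not go below the genome background of 1.65 tags, a value that 17 of the 237 peaks (7.17%) had. The fold enrichment, the ratio of the pileup to the local background, had a median of 8.54 (95% order-statistic interval 7.91 to 9.57) and quartiles of 6.86 and 11.61. The median length was 305 bp (289 to 322 bp), with a range from 200 bp, the shortest length in the list, to 1320 bp. A fold enrichment of at least 10, a level chosen after the values were seen, was found at 95 of the 237 peaks (40.1%, 34.1 to 46.4%), beside 26.1% of all annotated peaks. Such shares depend on the local background through the p-value at which the annotation ends, as described below. All pileups were even numbers, as when both reads of a pair are counted as tags, and the intervals of single peaks given below cover counting error only. They are exact intervals for a Poisson count of tags at an unchanged background, and they widen when each pair is counted once.

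**Figure D1:**
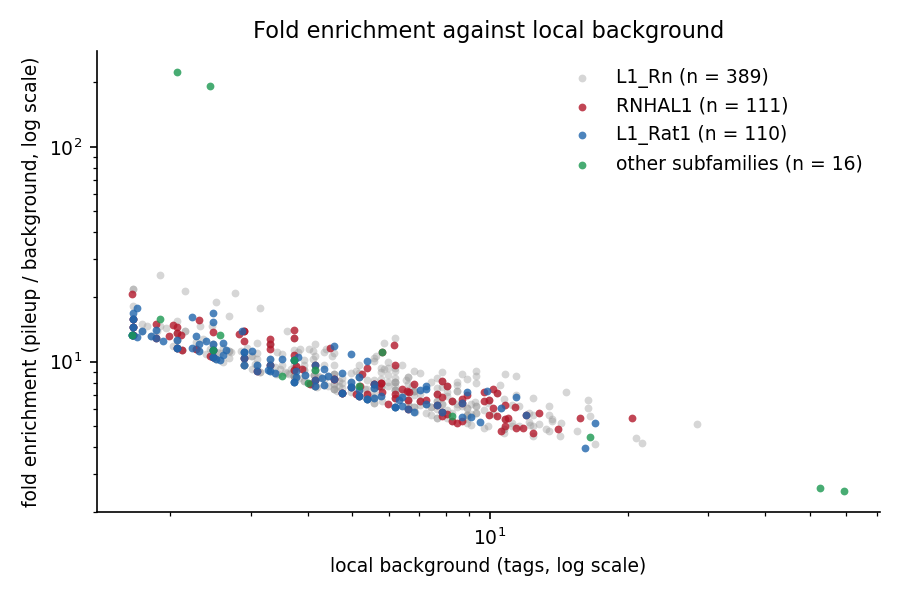
Fold enrichment (y axis, ratio of pileup to background, log scale) against local background (x axis, tags, log scale) for each RNHAL1, L1_Rat1, other-subfamily and L1_Rn peak outside introns; each point is 1 peak. The 2 L1M2 peaks stand alone at the top, with fold enrichments of 191.82 and 223.45, and the lower edge of the cloud falls with the background because the annotated list ends at a -log10 p-value of 17.78.

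The lower edge in the plot of fold enrichment against background follows from the p-value at which the annotation used here ends. At the genome background a pileup of 22 tags, or 13.31-fold, is the smallest even number that enters, and a background of 20 tags needs 70 tags, or 3.50-fold. The smallest pileup and fold that can enter thus depend on the background, and the local background is given with the comparisons of pileup and fold.

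The 2 L1M2 peaks had the smallest p-values of the whole list. Both are on unplaced contigs, where no nearest gene was given and no other peak of the list was found. The first covers positions 1 to 603 of its contig, where 462 tags stood over a background of 2.07 tags, an enrichment of 223.45-fold (203.54 to 244.79). The second covers positions 5907 to 7226 of another contig and was the longest of the 237 peaks, with 468 tags and 191.82-fold enrichment (174.83 to 210.01). Both stood far from the other members: the next member by p-value had a -log10 p-value of 52.81, against 889.65 and 870.22 for these. In the whole list 6 peaks reached 100-fold, and 4 of them, both L1M2 peaks included, were on unplaced contigs. Among peaks that are not members, the largest fold was 233.45, the largest pileup 438 tags and the largest -log10 p-value 751.26. The largest fold enrichment among the other 235 members was 20.56.

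Of the regions amplified by ChIP-PCR, the RNHAL1 peak on chromosome 5 from 1682868 to 1683456 (rn6) had 34 tags at the genome background of 1.65 tags, which is 20.56-fold (14.24 to 28.73). The L1_Rat1 peak on chromosome Y from 1588659 to 1589079 had 64 tags over a background of 8.89 tags, which is 7.20-fold (5.54 to 9.19). The fold enrichments differed 2.86 times, and their intervals did not overlap, also with each pair of tags counted once (11.98 to 32.92 and 4.92 to 10.16). The order of the pileups was the opposite, with 1.88 times as many tags at the peak on chromosome Y, and the -log10 p-values of 33.06 and 33.03 put both at neighbouring ranks of the list. The nearest genes were Jph1, which encodes a junctophilin of membrane junctions, at 266 kb, and Usp9y, a Y-linked ubiquitin protease, at 185 kb. Below, a peak is called near the gene of its nearest annotated transcription start site, at whatever distance.

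After the L1M2 peaks, the members of smallest p-value were RNHAL1 peaks, with a tie at the last place. The peak on chromosome 3 from 98738193 to 98739491, 441 kb from the start of the potassium channel gene Kcna4, was 1299 bp long, had 74 tags and was enriched 12.01-fold (9.43 to 15.08). The peak on chromosome 8 from 84511125 to 84511713 near Tinag had 112 tags, the most of any RNHAL1 peak, but over a background of 20.48 tags, so that its fold enrichment was 5.47 (4.50 to 6.58). The peak on chromosome 14 from 32925509 to 32926031 near Igfbp7, which encodes a secreted protein that binds insulin-like growth factors, was enriched 11.05-fold (8.51 to 14.11). The L1_Rn2 peak on chromosome 17 near Zkscan8 had the same p-value and fold enrichment as this one. All of these peaks had backgrounds above the median of the 237. The L1_Rat1 peaks of smallest p-value were on chromosome 2 near Basp1, with 54 tags and 11.87-fold (8.92 to 15.49), on chromosome 2 near Cast, with 78 tags and 6.86-fold (5.42 to 8.56), and on chromosome 3 near Arl5a, with 72 tags and 7.32-fold (5.73 to 9.22). Cast encodes calpastatin, the inhibitor of calpain proteases. By fold enrichment, the L1M2 peaks and the chromosome 5 region were followed by L1_Rat1 peaks on chromosome X near Dock11 (17.69-fold, 11.94 to 25.25) and, with equal folds, on chromosome 16 near Triml2 (16.93-fold, 12.20 to 22.88) and chromosome 2 near P2ry1 (16.93-fold, 11.25 to 24.47), all at backgrounds under 3 tags. The RNHAL1 peak on chromosome 16 near RGD1559804, at 918 kb, was 1110 bp long and the remaining one of the 3 longest.

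The small subfamilies spanned the whole range of enrichment. The 7 L1_Rat2 peaks had fold enrichments from 5.56 to 13.31 and pileups from 22 to 46 tags. Their nearest genes included Tshr, Timm9, Mir297, Crem, Lmbrd1 and Pkia. The peak near Crem, whose product drives the transcription of many postmeiotic genes in spermatids, lies 38.8 kb from the start site and had the lowest fold of the 7 (5.56, 4.07 to 7.42). The 3 L1_Rn2 peaks were enriched 15.77-fold, 11.05-fold and 7.99-fold. The first was nearest to the cadherin gene Cdh9 (663 kb) and the second to the zinc finger gene Zkscan8 (37.6 kb). The third was nearest to Vom2r56, a vomeronasal receptor gene, at 944 kb. The peak nearest to Zkscan8 was 853 bp long. The L1_Mur1 peak, whose nearest gene was Tox at 552 kb, was enriched 7.74-fold (5.53 to 10.54). The Lx5 and L1VL4a peaks were at the other end. The Lx5 peak on chromosome 1 near Vom2r9 had 148 tags over a background of 59.44 tags, the highest among the 237, and the lowest fold enrichment, 2.49 (2.11 to 2.93). The L1VL4a peak with Stx19 as nearest gene, at 638 kb, had 136 tags over 52.71 tags, or 2.58-fold (2.16 to 3.05). The other L1VL4a peak, with Vom2r56 as nearest gene at 553 kb, had 4.47-fold (3.51 to 5.61). With 1 to 7 peaks each, these subfamilies were not tested against the others.

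RNHAL1 peaks were longer than L1_Rat1 peaks. The median length was 369 bp for RNHAL1 (319 to 473 bp) and 285.5 bp for L1_Rat1 (267 to 300 bp). Of the RNHAL1 peaks 70 of 111 (63.1%) and of the L1_Rat1 peaks 40 of 110 (36.4%) were longer than the median of both together. The difference passed a two-sided Fisher's exact test (p = 9.1e-05, Benjamini-Hochberg adjusted p = 0.000590 over the 13 main tests). Peaks of at least 500 bp made up 35.1% of RNHAL1 (39 peaks, 26.9 to 44.4%) and 5.45% of L1_Rat1 (6 peaks, 2.52 to 11.4%), beside 29.8% of all annotated peaks and 21.3% of L1_Rn peaks. The summit was at a similar relative place in both, at a median of 0.45 and 0.47 of the peak length. Peaks are not replicates, and these p-values describe the list, not the animals. Among peaks of 30 to 50 tags, a range chosen after the values were seen, the medians were 341 bp for 57 RNHAL1 peaks and 281.5 bp for 66 L1_Rat1 peaks (adjusted p = 0.0492, Fisher's exact test). The difference did not pass the test among peaks of a background at or under 4.55 tags, the pooled median (exact adjusted p = 0.185), or among the 49 and 26 peaks of a p-value of at most 1e-25, where it was larger, at 34.3 beside 26.7 percentage points (exact adjusted p = 0.0939), and it passed above that background, where the medians were 472 and 310 bp (exact adjusted p = 0.00228).

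**Figure D2:**
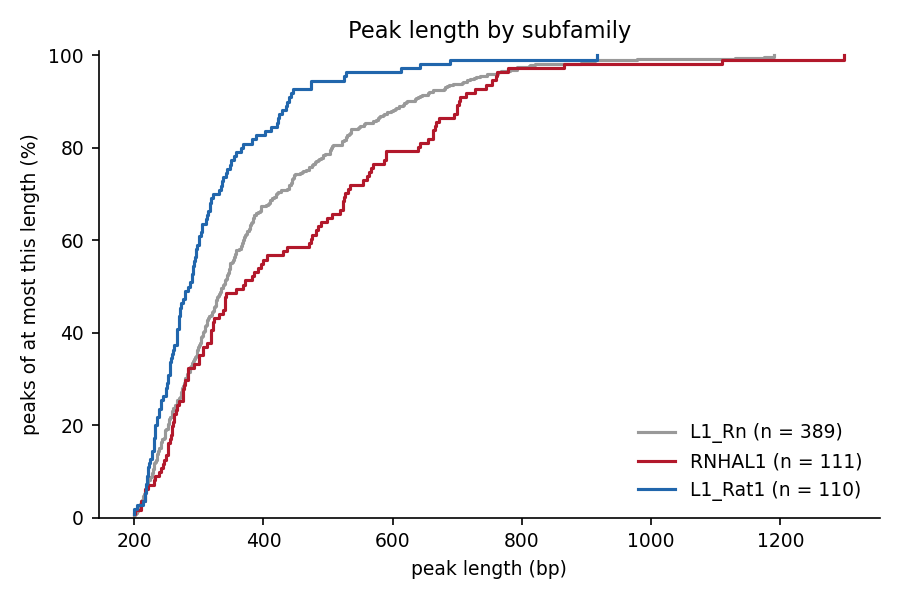
Share of peaks (y axis, percent) of at most a given length (x axis, bp) for RNHAL1, L1_Rat1 and L1_Rn peaks outside introns. The L1_Rat1 line reaches its middle at 285.5 bp, before L1_Rn at 337 bp and RNHAL1 at 369 bp.

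RNHAL1 peaks also had more tags and a higher local background. The median pileup was 44 tags (40 to 46) for RNHAL1 and 34 tags (32 to 38) for L1_Rat1, and 61.3% against 32.7% of the peaks were above the pooled median (adjusted p = 0.000353, Fisher's exact test). The median background was 5.58 tags (4.55 to 6.41) and 3.74 tags (3.10 to 4.42), with 59.5% and 38.2% above the pooled median (exact adjusted p = 0.00632). The fold enrichment went the other way, with medians of 7.88 (7.16 to 9.03) and 9.20 (8.37 to 10.28) and 41.4% against 58.2% of peaks above the pooled median (exact adjusted p = 0.0336). The smallest fold that could enter was 6.45 at the median background of RNHAL1 and 8.55 at that of L1_Rat1. Among peaks of a p-value of at most 1e-25 none of the 3 differences passed, with 4.87 percentage points for pileup, 16.6 for background and -12.8 for fold (exact adjusted p = 0.948, 0.657 and 0.657). The fold difference also did not pass at 5-fold or more (exact adjusted p = 0.166), at the upper quartile (exact adjusted p = 1.0) or above a background of 4.55 tags (exact adjusted p = 0.600). It did not pass the test on placed chromosomes alone (exact adjusted p = 0.0556) and changed direction among peaks with a background of at most 4.55 tags, where the medians were 12.44 for RNHAL1 and 11.25 for L1_Rat1 (exact adjusted p = 0.294). The pileup difference did not pass on either side of that background (exact adjusted p = 0.353 and 0.183), which was chosen as a division after the values were seen.

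The places of both subfamilies in the ranked list are given as a description. Of the 1930 annotated peaks ordered by p-value and divided into 5 groups of 386, the group of smallest p-values held 9 RNHAL1 and 5 L1_Rat1 peaks, and the group of largest p-values held 22 and 39. The share of L1_Rat1 climbed through all 5 groups, from 1.30% (0.555 to 3.0%) to 10.1% (7.48 to 13.5%), whereas that of RNHAL1 was largest in the middle group, at 7.77% (5.50 to 10.9%), with intervals that overlap those of every group but the first. All 237 peaks together made up 4.40% of the first group and 16.6% of the last. The members of largest p-value, near Ppp4r3a on chromosome 6 and LOC689600 on chromosome X, are L1_Rat1 peaks of 30 tags and 8.06-fold (5.44 to 11.51) at a -log10 p-value of 17.78, which is also the largest value among the peaks outside the annotation used.

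**Figure D3:**
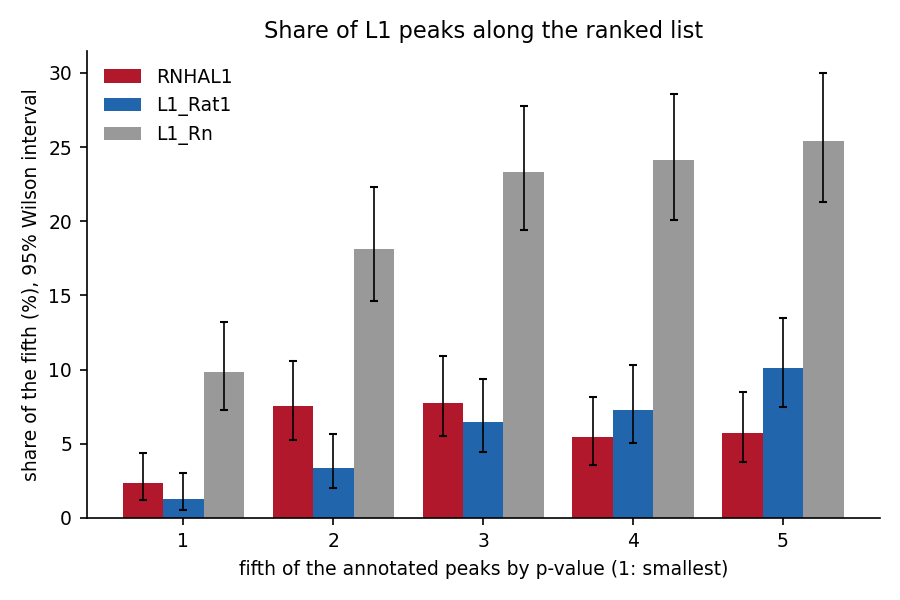
Share (y axis, percent, with 95% Wilson intervals) of RNHAL1, L1_Rat1 and L1_Rn peaks outside introns in 5 equal groups of the 1930 annotated peaks ordered by p-value (x axis, group 1 with the smallest p-values). L1_Rat1 goes from 1.30% to 10.1%, RNHAL1 from 2.33% to 5.70% with its largest share in the middle group, and L1_Rn from 9.84% to 25.4%.

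Set against the 389 L1_Rn peaks outside introns, the other L1 peaks were shorter and had fewer tags. The median lengths were 305 and 337 bp, and 42.6% of the other L1 peaks against 54.5% of the L1_Rn peaks were above the pooled median (adjusted p = 0.0131, Fisher's exact test). The median pileups were 38 and 40 tags, with 40.1% and 49.6% above the pooled median (exact adjusted p = 0.0388). In a comparison added after the values were seen, L1_Rat1 alone was shorter than L1_Rn (exact adjusted p = 3.7e-05), whereas RNHAL1 alone had more peaks above the pooled median length than L1_Rn, without passing the test (exact adjusted p = 0.562). The pileup likewise changed direction for RNHAL1 alone, by 6.49 percentage points more peaks above the pooled median than L1_Rn (exact adjusted p = 0.386), and was lower for L1_Rat1 alone (exact adjusted p = 0.000467). Among peaks of a p-value of at most 1e-20 neither passed, with differences of -10.7 and -9.97 percentage points beside -11.9 and -9.53 for all peaks (exact adjusted p = 0.0705 for length and 0.0778 for pileup). At 1e-25 the length difference was -0.505 and the pileup difference -9.04 percentage points (exact adjusted p = 1.0 and 0.657). The pileup call also ended at 5-fold or more (exact adjusted p = 0.207), and both ended at the upper quartile (exact adjusted p = 1.0 for length and 0.761 for pileup). Median fold enrichments of 8.54 and 8.32 did not differ by the test (51.1% and 49.4% above the pooled median, exact adjusted p = 0.964), nor did backgrounds of 4.47 and 4.96 tags (exact adjusted p = 0.462). The main subfamilies went in opposite directions here. Against L1_Rn, the background of RNHAL1 alone was above the pooled median at 8.04 percentage points more peaks (exact adjusted p = 0.301), and that of L1_Rat1 alone was lower by the test (-15.0 percentage points, exact adjusted p = 0.0147). For fold the differences were -7.91 and 10.9 percentage points, and neither passed (exact adjusted p = 0.301 and 0.0748). The upper part of the fold enrichments differed, however. With the upper quartile in place of the median, the share of the other L1 peaks above it was larger by 12.2 percentage points (exact adjusted p = 0.00359), and at least 10-fold enrichment was found at 26.7% of L1_Rn peaks (22.6 to 31.3%) against the 40.1% given above. These shares are not independent of the background, since a peak at the genome background needed about 13.3-fold to enter the annotated list. The lower quartile of the background was 2.48 tags for the other L1 peaks and 3.41 tags for L1_Rn. The genome background was the local background of 2.31% of L1_Rn peaks (1.22 to 4.34%), against 7.17% (4.53 to 11.2%) of the other L1 peaks and 5.49% (4.56 to 6.60%) of all annotated peaks. Without the L1M2 peaks the largest fold enrichment of the other L1 peaks, 20.56, was below that of L1_Rn, 25.23.

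The other L1 peaks were less often close to another peak than L1_Rn peaks. Another peak of the list lay within 10 kb, edge to edge, of 45 of the 237 (19.0%, 14.5 to 24.5%) and of 118 of the 389 L1_Rn peaks (30.3%, 26.0 to 35.1%; adjusted p = 0.00632, Fisher's exact test). Both shares were below the 42.1% of all 1930 annotated peaks. RNHAL1 and L1_Rat1 did not differ by the test in this respect (18.9% and 18.2%, exact adjusted p = 1.0). The difference from L1_Rn did not pass with neighbours within 1 kb (exact adjusted p = 0.676), within 100 kb (exact adjusted p = 0.502) or among annotated peaks only (exact adjusted p = 0.0768), nor for RNHAL1 alone, where it was -11.4 percentage points (exact adjusted p = 0.0574), and it passed for L1_Rat1 alone, at -12.2 percentage points (exact adjusted p = 0.0211). The plot of distances has a step for L1_Rn between 4 and 7 kb, a range chosen after the plot was seen: the nearest peak was at that distance for 50 of the 389 L1_Rn peaks (12.9%, 9.89 to 16.5%) and for 13 of the 237 other L1 peaks (5.49%, 3.23 to 9.16%), beside 10.7% (9.37 to 12.1%) of all annotated peaks, and the difference was not tested. The nearest peak was at a median of 73.0 kb for the other L1 peaks and 50.3 kb for L1_Rn. In 41 of the 45 cases the nearest peak was outside the annotation used, where no -log10 p-value exceeds 17.78. These 41 neighbours could therefore not have the smaller p-value of the pair. The nearest peak had the larger p-value in 43 cases, a count mostly fixed by this limit. None of the 237 lay within 10 kb of another of them. In 3 cases the neighbour was an L1_Rn peak. On chromosome X the RNHAL1 peak from 16512769 to 16513061, with 64 tags, began 252 bp from an L1_Rn peak of 84 tags, and their fold enrichments were alike at 6.59 and 6.25. The Lx5 peak also had a neighbour at 495 bp of nearly the same fold, 2.38, without a repeat name. The closest neighbour of all, 155 bp from an RNHAL1 peak on chromosome 5 near Atp6v1h, was weaker, with 12 tags beside 34.

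**Figure D4:**
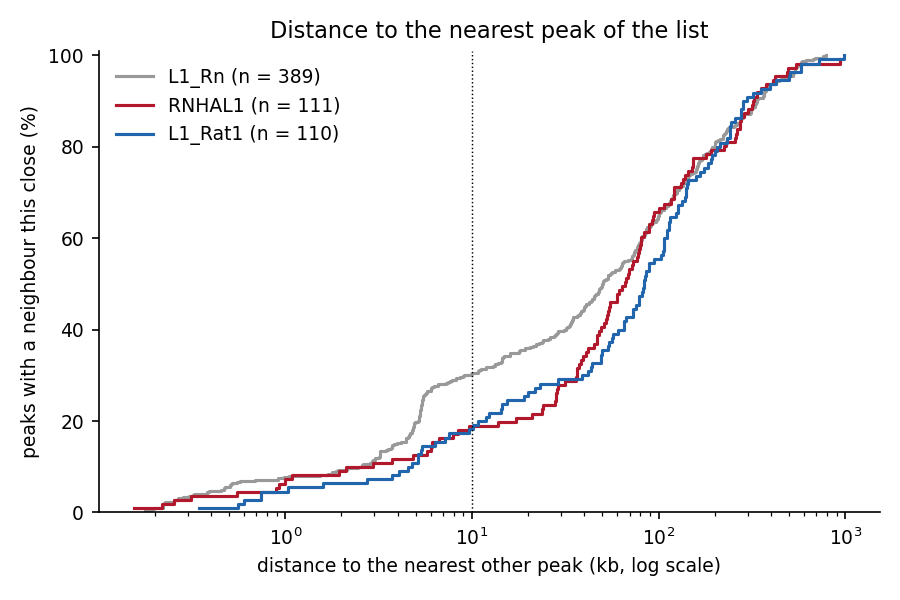
Share of peaks (y axis, percent) with another peak of the whole list within a given distance, edge to edge (x axis, kb, log scale), for RNHAL1, L1_Rat1 and L1_Rn peaks outside introns; the dotted line marks 10 kb. At that line L1_Rn is at 30.3%, above RNHAL1 at 18.9% and L1_Rat1 at 18.2%.

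Most of the peaks lay over 50 kb from the start of a gene. The rule left out peaks in introns, and the share over all annotated peaks was not computed. The distance is thus not shown to be particular to these peaks. The 231 peaks with a distance had their nearest transcription start site (TSS) at a median of 178 kb (133 to 233 kb), and 16 had none within 1000 kb. A TSS lay within 50 kb of 60 peaks (26.0%, 20.7 to 32.0%), beside 25.4% of L1_Rn peaks (adjusted p = 1.0, Fisher's exact test). The shares of RNHAL1 and L1_Rat1 within 50 kb were 26.2% and 27.3% (exact adjusted p = 1.0). Within 200 kb they were 46.7% and 62.7%, a difference that passed the test (exact adjusted p = 0.0340). The 4 peaks within 5 kb were on L1_Rat1 (3.64%, 1.42 to 8.98%), beside 0 of 107 RNHAL1 peaks (0 to 3.47%) and 2.43% of L1_Rn peaks. These intervals overlap, and the subfamilies did not differ by the test within 10 kb (exact adjusted p = 0.591). They lay near Nlrp6, an innate immune sensor (2.05 kb from the start, 7.52-fold, 5.42 to 10.16), Klrc1, a natural killer cell receptor (2.53 kb, 8.06-fold, 5.76 to 10.98), Defa8, a defensin (4.17 kb, 11.34-fold, 7.65 to 16.19), and Tubgcp5, a component of the gamma-tubulin complex (4.80 kb, 10.14-fold, 6.62 to 14.86). A further 10 peaks, described after their values were seen, were between 5 and 10 kb from a start, among them those of Atp6v1h, Nova1, Ppargc1b, Ftmt, Lancl2, Fzd6, Cyp2e1, Ranbp6 and Olr1845, with fold enrichments from 5.26 near Fzd6 to 13.70 near Atp6v1h. In all, 220 genes were nearest to the 231 peaks. Of these, 10 were nearest to more than 1 peak, and Basp1, which encodes a membrane-bound signalling protein, was nearest to 3.

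Peaks were found on 21 of the 22 named chromosomes. Chromosome 1 held 34 (14.3%), chromosome 2 held 27 (11.4%) and chromosome X held 18 (7.59%, 4.86 to 11.7%). Of all annotated peaks, these chromosomes held 14.8%, 8.65% and 6.27%. The share on chromosome X stood beside 9.51% of L1_Rn peaks on chromosome X (adjusted p = 0.676, Fisher's exact test). Chromosome 12 held none among its 31 annotated peaks (0 to 11.0%), whereas members made up 12.3% of all annotated peaks. Members were 4 of the 114 annotated peaks of chromosome 14 (3.51%, 1.37 to 8.68%). On chromosome 16 they were 13 of 54 (24.1%, 14.6 to 36.9%). These chromosomes were chosen after the values were seen, and the differences between chromosomes were not tested. RNHAL1 outnumbered L1_Rat1 on 8 chromosomes and L1_Rat1 outnumbered RNHAL1 on 8, with equal numbers on 5. The widest gap was on chromosome 18, with 1 RNHAL1 and 7 L1_Rat1 peaks. The contigs of chromosome Y held 3 RNHAL1 peaks among 57 annotated peaks and 21 L1_Rn peaks.

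**Figure D5:**
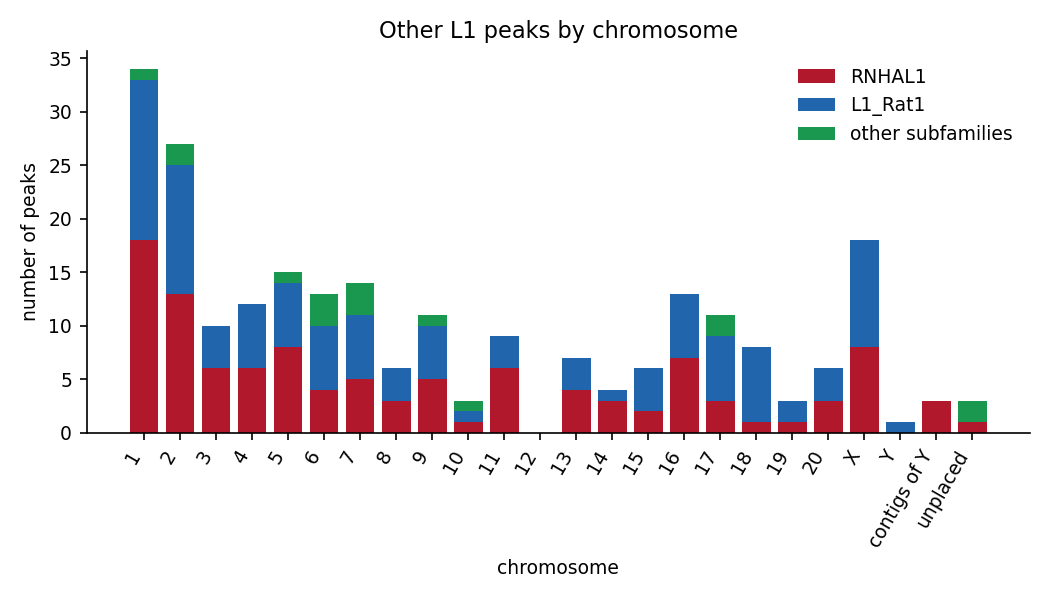
Number of peaks (y axis) on each chromosome, on contigs assigned to chromosome Y and on unplaced contigs (x axis), stacked by RNHAL1, L1_Rat1 and other subfamilies. Chromosomes 1, 2 and X hold 34, 27 and 18 peaks, and chromosome 12 holds none.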

How the data were processed

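H1T2 IP (2 samples) and input (2 samples) of rat testis chromatin were sequenced by the authors, aligned to rn6 with Bowtie2, merged and used for 1 peak list. The methods state that reads were aligned uniquely and that PCR duplicates were removed. Whether unique alignment affects the L1 subfamilies differently was not tested. The list's header names MACS 2.0.9 with a p-value cutoff of 5e-05, whereas the study's text names MACS 1.4.2 with a cutoff of 1e-05. The smallest -log10 p-value in the list, 4.32, is a larger p-value than a cutoff of 1e-05 allows and lies within that of the header, which was followed. Header and methods both name merged files. The methods also describe an earlier call in each replicate, and the study's annotation calls these peaks common to both replicates. The list cannot settle which applies. Per the file headers, 16203958 IP tags (47.6%) and 78371120 input tags (93.8%) were kept, with at most 2 and 3 tags at a position. The deposited signal is the pileup at the summit, the deposited fold enrichment is its ratio to the local background, and the deposited -log10 p-value is that of the merged IP against the merged input. A Poisson probability computed from pileup and background gave it back within 0.1 for all 237 peaks. Repeat names, TSS distances and nearest genes are the authors' annotation (HOMER 4.7), used for 1930 peaks. Sets were compared by two-sided Fisher's exact tests on numbers above the pooled median, with Benjamini-Hochberg adjustment over 13 tests and a threshold of 0.05. The alternatives were also adjusted in sets of 13 tests, not over all alternatives together. The test was tested on simulated data. The members, lists and tests were chosen with earlier results of these data known. Regions named are the ChIP-PCR LINE regions, the 5 smallest p-values, the 5 largest folds, the 3 smallest p-values of RNHAL1 and of L1_Rat1, all peaks of subfamilies of at most 7, those within 5 kb of a TSS, the 3 longest, the 3 of highest background and the 2 of largest p-value. Some nearest genes are not reported here. Alternatives were filters on p-value and fold, pairs counted once, other sets of chromosomes, neighbouring peaks counted once and other distances. Python 3.11.15, numpy 2.4.6, pandas 2.3.3, scipy 1.17.1 and matplotlib were used.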

Additional observations from a re-analysis of the deposited data

How the results depend on the processing

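No paired analysis was possible because the list was called on merged samples and has no values per sample. Sequence features were not run, since a genome of the build was not used here. Depth limits single peaks of 22 to 40 tags, and the merged list leaves the spread between replicates unknown. Counting each pair of tags once removed no peak at a p-value of at most 1e-05. The -log10 p-values then went down to 9.74, below the 17.78 at which the annotation used ends. This counting leaves a division at the median as it is, so that it tests nothing here. Of 88 other alternatives of the tests, 54 kept direction and side of the threshold. Differences below are percentage points of peaks above the pooled value or with the property, and where one no longer passed or changed, the cause was not tested. For RNHAL1 against L1_Rat1, a p-value of at most 1e-25 ended the calls on length (34.3), fold (-12.8), pileup (4.87) and background (16.6). The fold call also ended at 5-fold or more (-12.6), on placed chromosomes and with Intergenic annotation (-15.2 for both) and at the upper quartile (-2.03). In added comparisons, a low background ended the calls on length (17.4) and pileup (12.9) and reversed fold (13.7), and a high background ended those on fold (-7.79) and pileup (17.3). TSS within 200 kb passed (-16.0). For other L1 against L1_Rn, the length call ended at 1e-20 (-10.7), 1e-25 (-0.505) and the upper quartile (-0.977), and the pileup call at 1e-20 (-9.97), 1e-25 (-9.04), 5-fold (-6.81) and the upper quartile (-2.76). Fold reversed at 1e-20 (-0.296) and passed at the upper quartile (12.2). The neighbour call ended within 1 kb (-1.80), within 100 kb (-4.02) and with annotated peaks only (-3.55). TSS shares reversed within 10 kb (-1.51) and 200 kb (-2.86). RNHAL1 alone, an added comparison, reversed length (5.21), fold (-7.91), pileup (6.49) and background (8.04) and ended the neighbour call (-11.4), and L1_Rat1 alone passed on background (-15.0). At 1e-25 the number of peaks was 82 and the median length 370.5 bp. The share with a neighbour was 5.91% within 1 kb, 60.8% within 100 kb and 2.11% with annotated peaks only, and that near a TSS was 6.06% within 10 kb and 52.8% within 200 kb.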

Other observations

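Introns held a further 44 peaks on L1 subfamilies other than L1_Rn, which made 281 such peaks in all among the 756 annotated LINE peaks. The median length was 314 bp (284 to 419 bp), the median pileup 40 tags (34 to 46) and the median fold enrichment 8.06 (7.44 to 8.41), beside 305 bp, 38 tags and 8.54 outside introns. Peaks of at least 10-fold enrichment made up 27.3% of those in introns (16.3 to 41.8%) and 40.1% of those outside (34.1 to 46.4%), and the difference was not tested. The lower quartile of the background was 3.72 tags in introns and 2.48 tags outside.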
